A study of Mus musculus with 2 samples.

Results

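The 10 genes described here encode proteins with which macrophages bind, carry, store and export lipid: Apoe, Trem2, Gpnmb, Fabp5, Fabp4, Lpl, Lgals3, Plin2, Cd36 and Abca1. They were chosen by name and matched to the gene symbols of the deposited matrices, where all 10 of 10 were found once each among 34290 genes. The matrices are single-cell RNA counts of tumours grown from MC38, a mouse colorectal cancer line, taken at day 21 after engraftment. One library came from tumours of vector control MC38 cells and 1 from tumours of MC38 cells in which TMEM16F, a calcium-activated phospholipid scramblase encoded by Ano6, had been knocked out. The deletion is in the engrafted cells, so the macrophages are those of untreated host mice in both libraries, and the labels give neither the strain and age of the mice nor how many of them stand behind a library. The series describes the cells as lymphocytes of the tumour, yet macrophage-like cells were the most numerous class in both libraries. With 1 library per group no difference has a replicate check, no test across libraries was run, and every interval below is a 95% interval for counting error alone. The difference between knockout and control cannot be told apart from a difference between any 2 tumours or cell preparations.

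Macrophages take up lipoproteins, dying cells and membrane debris through scavenger receptors, digest the lipid in lysosomes, and then store it as esters in lipid droplets, burn it, or hand the cholesterol to carriers outside the cell. Sterols formed on the way activate the liver X receptors, which switch on efflux genes such as Abca1 and Apoe, while the sterol-regulated SREBP factors that drive cholesterol and fatty acid synthesis are held back when cholesterol is plentiful. Macrophages with high Trem2, Gpnmb, Fabp5, Lpl, Lgals3 and Cd9 have been described in fat tissue, atherosclerotic plaques and tumours under the name lipid-associated macrophages.

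Promoter sequences are shown for Abca1, Plin2 and Cd36, which are among the members known as targets of lipid-sensing nuclear receptors. RefSeq promoter windows (build GRCm38.p6) were found for 7 of 10 members, namely Apoe, Trem2, Gpnmb, Lgals3, Plin2, Cd36 and Abca1, and not for Fabp5, Fabp4 and Lpl. The 250 bases before the start site were searched on both strands for 2 copies of the nuclear receptor hexamer AGGTCA in 1 orientation, with 4 bases between them (the spacing of liver X receptors) or 1 base between them (the spacing of PPARs), and for CACGTG and TCANGTGA (which overlap where the N is C), which MiT/TFE factors and other basic helix-loop-helix factors bind. Capitals mark these matches, with at most 3 mismatches to the paired hexamers and none to the other motifs, and each sequence runs 5′ to 3′ on the strand of its gene.
Abca1, chr4:53159896-53160145, minus strand: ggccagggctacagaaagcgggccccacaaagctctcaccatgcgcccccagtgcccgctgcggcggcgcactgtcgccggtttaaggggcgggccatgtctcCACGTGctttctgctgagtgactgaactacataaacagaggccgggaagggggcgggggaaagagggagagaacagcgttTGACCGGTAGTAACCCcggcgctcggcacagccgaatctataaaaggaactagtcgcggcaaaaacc
Plin2, chr4:86670060-86670309, minus strand: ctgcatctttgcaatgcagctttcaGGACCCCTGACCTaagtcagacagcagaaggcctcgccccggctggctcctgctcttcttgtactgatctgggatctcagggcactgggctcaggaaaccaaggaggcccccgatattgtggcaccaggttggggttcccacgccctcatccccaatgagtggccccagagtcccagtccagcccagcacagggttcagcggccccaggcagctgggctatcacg
Cd36, chr5:17835897-17836146, minus strand: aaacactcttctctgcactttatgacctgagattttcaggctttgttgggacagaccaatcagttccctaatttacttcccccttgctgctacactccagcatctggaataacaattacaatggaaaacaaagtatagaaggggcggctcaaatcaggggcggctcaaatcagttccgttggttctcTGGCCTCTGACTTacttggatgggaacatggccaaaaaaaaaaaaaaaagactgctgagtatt
In the Abca1 window the closest pair with 4 bases between began 67 bases before the start site and had 3 mismatches, a closeness found in 18.5% of all 32851 windows. The same window held CACGTG, which 6.02% of windows hold. The Plin2 and Cd36 windows each held a pair with 1 base between and 2 mismatches, 225 and 63 bases before the start, and 3.24% of windows held one that close. TCANGTGA was present in the Lgals3 window and in 3.45% of all windows. These are matches of letters and not measured binding sites, and nothing in these libraries measures binding.

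Over all kept cells the libraries were of like depth, at medians of 6034.5 UMIs in the vector control and 5989.5 in the knockout library. The vector control library held 5253 barcodes and 46338994 UMIs (unique molecular identifiers, each counting 1 captured transcript), of which 5028 cells were kept, and the knockout library 5993 barcodes and 49777630 UMIs, of which 5688 were kept. Both libraries had 10 barcode sequences in common. Ano6 stood at 29.0 CPM (UMIs of a gene scaled by the UMI total of the cells) over all kept vector control cells and at 33.6 CPM over knockout cells. In stroma-like cells Ano6 was at 56.8 and 40.0 CPM, a ratio of 0.705 (0.378 to 1.24) from 57 and 16 UMIs. Whether these hold engrafted cells was not tested. Transcript ends may still be counted where a coding exon is deleted, and 1 and 0 tumour-like cells were found, so the labels could not be checked in the cells that carry the deletion. Cells were put into classes by the UMIs of fixed marker genes. There were 2722 macrophage-like cells in the vector control and 2841 in the knockout library, 156 and 116 monocyte-like cells, 1069 and 1397 T-like cells, 70 and 100 NK-like cells, and 53 and 42 mature dendritic cell (DC)-like cells. None of the 10 members is among the marker genes. Levels are CPM of the UMIs summed over a class, and because each transcript is counted once at its 3′ end they do not scale with transcript length. Macrophage-like cells were further divided by markers into Mmp12, Mrc1, Il1b, cycling and other macrophages. The Il1b group was 51.5% of macrophage-like cells in the vector control and 60.3% in the knockout library, and the cycling group 14.7% and 6.05%. Median depth in the Mmp12 group was 4083 UMIs in the vector control and 8414 in the knockout library, against 6965 and 7359 in the Il1b group. Its part in the subset ratios was not tested.

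Across cell classes, macrophages stood highest for most members, and the members split by macrophage subset. The plot of levels by class shows both libraries.

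**Figure D1:**
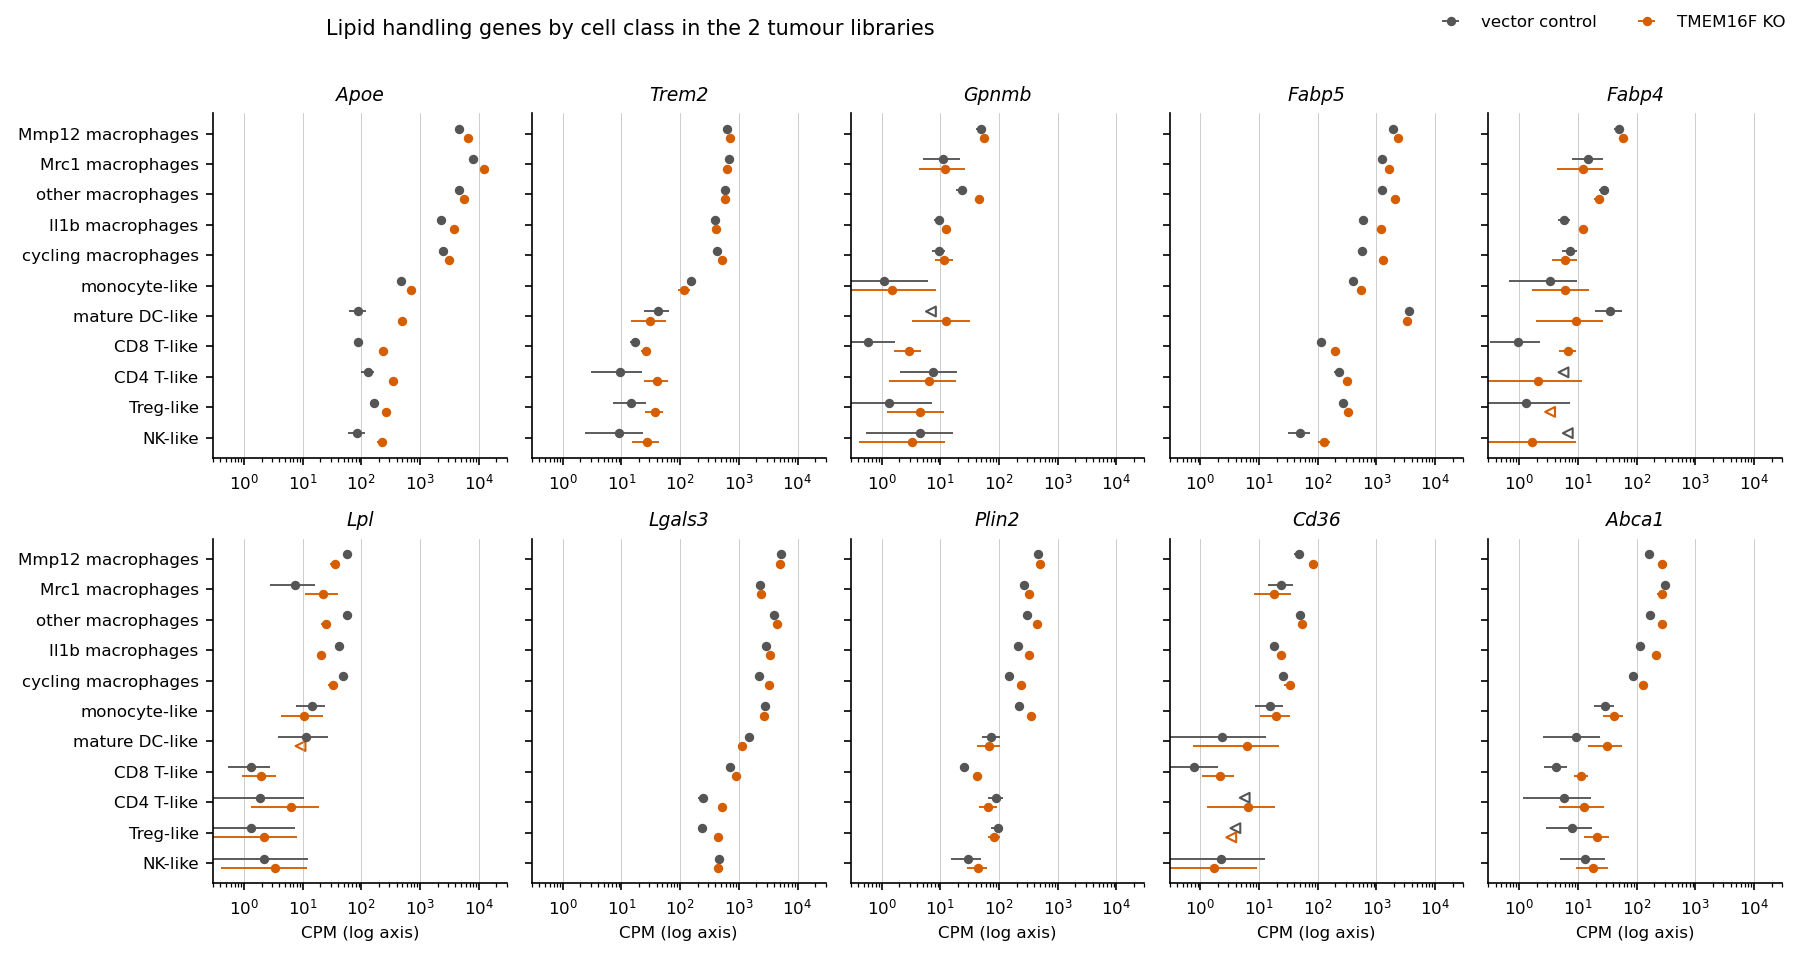
CPM of each member (log axis) in 11 cell classes of the vector control (grey) and TMEM16F KO (orange) libraries, with bars for 95% Poisson intervals and open triangles for the limit that a count of 0 allows. By the mean of both libraries, Apoe and Abca1 are highest in Mrc1 macrophages, 7 members in Mmp12 macrophages, and Fabp5 in mature DC-like cells. The highest class differs between the libraries for Trem2, Cd36 and Abca1, and lower ranks differ for further members.

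Positions of the members are those of mm10 in GENCODE M21 and span the annotated gene. Apoe, a secreted lipoprotein that carries cholesterol away from cells (ENSMUSG00000002985, chr7:19696109-19699188), differed between the macrophage subsets. Mrc1 macrophages had 8069 CPM in the vector control and 12191 CPM in the knockout library, Mmp12 macrophages 4576 and 6580 CPM, and Il1b macrophages 2238 and 3830 CPM. Both Mrc1 values lay above both values of every other class plotted. Abca1, the transporter that loads cholesterol and phospholipid onto apolipoproteins (ENSMUSG00000015243, chr4:53030787-53159895), was also highest in Mrc1 macrophages by the mean of both libraries, at 299 and 270 CPM (vector control first, here and below). The other macrophages followed at 172 and 266 CPM and Mmp12 macrophages at 164 and 272 CPM, and the knockout values of these 3 subsets lay close together. The marker subsets do not show where Abca1 was most concentrated. Among clusters by expression (Leiden clusters, below), 1 macrophage-like cluster of 157 and 336 cells had 1081.5 and 1467.8 CPM of Abca1.

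Trem2, a receptor for lipids and lipoproteins that signals through Tyrobp (ENSMUSG00000023992, chr17:48346401-48354147), stood at 628 and 714 CPM in Mmp12 macrophages and at 687 and 618 CPM in Mrc1 macrophages, so these neighbours were not apart. It was at 387 and 410 CPM in Il1b macrophages and at 156 and 117 CPM in monocyte-like cells, and both Il1b values lay above both monocyte-like values. Cd36, a scavenger receptor and fatty acid translocase (ENSMUSG00000002944, chr5:17781690-17888801), was a low-level gene, at 48.7 and 84.2 CPM in Mmp12 macrophages, 49.8 and 53.7 CPM in other macrophages and 18.3 and 23.7 CPM in Il1b macrophages.

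Among the macrophage subsets, the genes of intracellular lipid binding and storage were highest in the Mmp12 subset. Fabp5, a fatty acid chaperone (ENSMUSG00000027533, chr3:10012548-10016607), stood at 1886 and 2304 CPM there against 591 and 1196 CPM in Il1b macrophages. Other macrophages had 1261 and 2039 CPM of Fabp5 and were not apart from the Mmp12 subset, and Mrc1 macrophages had 1238 and 1633 CPM. The Fabp5 level was higher still in mature DC-like cells, at 3560 and 3260 CPM, so Fabp5 was not a macrophage-restricted gene in these tumours. Reads of Fabp5 may be shared with its processed pseudogene copies, and its absolute level is uncertain to that extent. Fabp4, the chaperone best known from fat cells and capillary endothelium (ENSMUSG00000062515, chr3:10204088-10208576), was at 49.6 and 59.0 CPM in Mmp12 macrophages and at 5.82 and 12.1 CPM in Il1b macrophages. The 6 endothelial-like cells of the knockout library held 176 Fabp4 UMIs, against 503 in all 2841 macrophage-like cells of that library. Plin2, a coat protein of lipid droplets (ENSMUSG00000028494, chr4:86648386-86670060), stood at 469 and 501 CPM in Mmp12 macrophages and at 221 and 350 CPM in monocyte-like cells, close to the 214 and 331 CPM of Il1b macrophages.

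Gpnmb, a lysosomal and cell-surface glycoprotein (ENSMUSG00000029816, chr6:49036546-49070929), was at 49.1 and 55.4 CPM in Mmp12 macrophages, at 23.2 and 45.0 CPM in other macrophages and from 9.43 to 12.3 CPM in the remaining subsets. Lgals3, the galactose-binding lectin galectin-3, which gathers at damaged lysosomes (ENSMUSG00000050335, chr14:47367751-47386160), was at 5176 and 5038 CPM in Mmp12 macrophages and at 2300 and 2388 CPM in Mrc1 macrophages. Lpl, the secreted lipase that frees fatty acids from triglyceride (ENSMUSG00000015568, chr8:68880491-68907448), was at 58.2 and 36.0 CPM in Mmp12 macrophages and at 7.54 and 22.1 CPM in Mrc1 macrophages. Of its neighbours in the order of macrophage subsets none were apart in both libraries. Nearly every macrophage-like cell had Lgals3 UMIs, and few had those of Gpnmb or Fabp4. After each cell was thinned to 2000 UMIs, which left out 597 vector control and 370 knockout cells, Lgals3 was found in 94.3% and 94.7% of macrophage-like cells, Apoe in 74.1% and 76.2%, Trem2 in 51.2% and 49.7%, Gpnmb in 2.82% and 4.05% and Fabp4 in 1.98% and 2.59%. Without thinning the shares were 95.3% and 94.0% for Lgals3, 87.7% and 92.0% for Apoe, 70.4% and 70.2% for Trem2, 6.17% and 9.75% for Gpnmb and 5.33% and 7.25% for Fabp4.

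Between the libraries, 9 of the 10 members were higher in knockout macrophage-like cells, where 54.1% of all genes tested were higher, and Lpl was lower. Of the 10, 5 were at least 1.5-fold higher, where 7.35% of the 12034 genes tested were, and 1 was at least 1.5-fold lower, where 4.92% were. The median log2 ratio was 0.52 over the members and 0.03 over all genes tested.

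**Figure D2:**
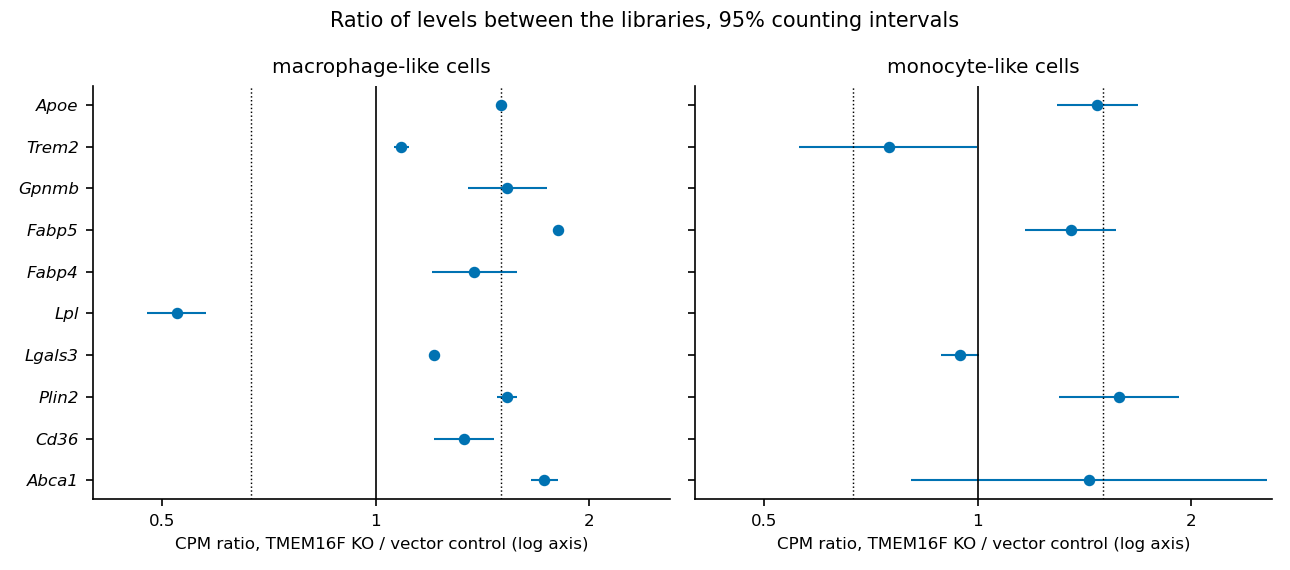
Ratio of CPM in TMEM16F KO to vector control (log axis) for the members in macrophage-like cells (left) and for the 6 members with at least 50 UMIs in monocyte-like cells (right), with 95% counting intervals; dotted lines mark 1.5-fold in either direction. Lpl alone lies below the lower line, and Fabp5 and Abca1 lie farthest above the upper one.

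Fabp5 had the highest ratio of the members. It stood at 828 CPM in vector control and 1499 CPM in knockout macrophage-like cells, a ratio of 1.81 (1.78 to 1.84), above 97.0% of the genes tested. The share of thinned cells with a Fabp5 UMI was 49.0% (46.8 to 51.1) and 63.1% (61.2 to 65.0), and the intervals did not overlap. Unthinned it was 71.9% and 82.8%, and in thinned T-like cells, which receive free macrophage RNA, 20.1% and 32.3%. Against the complement C1q genes of macrophages, Fabp5 and Plin2 in T-like cells exceeded macrophage-like cells (below), so these T-like shares are no plain background. Plin2 went from 236 to 361 CPM, a ratio of 1.53 (1.48 to 1.58), and from 33.7% to 44.6% of thinned cells (61.3% and 73.2% unthinned, 6.37% and 10.6% in thinned T-like cells). More cells carried the transcripts of both genes, and this held at equal depth per cell. Fabp4 was at 13.8 and 19.0 CPM, a ratio of 1.38 (1.20 to 1.58), and 10 cells held 35.7% of its vector control UMIs and 24.5% of its knockout UMIs, so its counting interval is narrower than the spread between cells. Endothelial markers summed to 15.1 and 27.0 CPM in macrophage-like cells, with Tie1 and Cldn5 at 0, and their part in the Fabp4 ratio was not tested.

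The cholesterol efflux genes Apoe and Abca1 were higher as well. Apoe stood at 3048 and 4576 CPM, a ratio of 1.50 (1.49 to 1.52), while the share of thinned cells with an Apoe UMI was 74.1% and 76.2%. The intervals of these shares overlapped (72.2 to 75.9 and 74.5 to 77.9), while the mean per thinned cell was 6.55 and 10.0 UMIs. The tenth of cells with most Apoe held 56.1% and 54.6% of its UMIs. Abca1 stood at 128 and 221 CPM, a ratio of 1.73 (1.66 to 1.80), and was found in 19.8% and 29.0% of thinned cells (40.3% and 56.7% unthinned, 1.15% and 2.79% in thinned T-like cells).

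Among the receptors, Trem2 differed least, at 455 and 494 CPM, a ratio of 1.09 (1.06 to 1.11), and at 51.2% and 49.7% of thinned cells. As a mean over cells its ratio was 0.972, below 1, so its direction changed with the summary used. Cd36 was at 28.0 and 37.3 CPM, a ratio of 1.33 (1.21 to 1.47). Gpnmb was at 15.2 and 23.4 CPM, a ratio of 1.53 (1.35 to 1.75) from 390 and 619 UMIs, of which 10 cells held 26.4% and 22.5%. Lgals3 was at 3106 and 3758 CPM, a ratio of 1.21 (1.20 to 1.22), but as a mean over cells its ratio was 1.01. These 4 genes are all used to mark lipid-associated macrophages, and their ratios ranged from near level to 1.53.

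Lpl went the other way. Macrophage-like cells had 46.7 CPM (1195 UMIs) in the vector control and 24.5 CPM (648 UMIs) in the knockout library, 1.91-fold lower (1.73 to 2.10). The share of thinned cells with an Lpl UMI was 5.41% (4.49 to 6.46) and 3.44% (2.76 to 4.24), with 17.5% and 10.4% unthinned and 0.418% and 0.239% in thinned T-like cells. Only 1.94% of the genes tested had a lower ratio. As a mean over cells the Lpl ratio was 0.673, which is short of 1.5-fold.

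The count of 5 higher members rested on genes close to the threshold. It was 2 when mitochondrial, ribosomal protein and haemoglobin genes were left out of the total, 3 when ratios were centred on the median gene, and 1 (Fabp5) when the macrophage subsets were weighted alike in both libraries. Several gene groups moved beside the members in these cells. The cycling markers were lower, with 0 of 6 higher and a summed level of 481 CPM in the vector control and 221 CPM in the knockout library, the 4 Il1b subset markers were all higher (6485 and 9424 CPM), and Malat1, a nuclear RNA, was at 3812 and 6239 CPM. Ribosomal protein genes took 17.6% and 14.2% of UMIs. Neutrophil markers summed to 120 and 199 CPM with 3 of 6 higher, and T cell markers to 61.2 and 66.8 CPM with 4 of 7 higher. The tumour list summed to 31.3 and 17.5 CPM, a ratio of 0.558 (0.497 to 0.626), with 3 of 6 genes detected and Krt8, Krt19 and Cldn3 at 0. The adipocyte list summed to 0.117 and 0.378 CPM, with 2 of 5 genes detected and Adipoq, Cidec and Plin1 at 0. Apart from the subset weighting and the filters given, the part of these in the ratios was not tested.

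Within the macrophage subsets the ratios were uneven, and the ratio was above 1 in all 5 for Apoe, Gpnmb, Fabp5 and Plin2. The intervals left out 1 in all 5 for Apoe and Fabp5, while that of Gpnmb held 1 in the Mmp12, Mrc1 and cycling subsets and that of Plin2 in the Mmp12 and Mrc1 subsets.

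**Figure D3:**
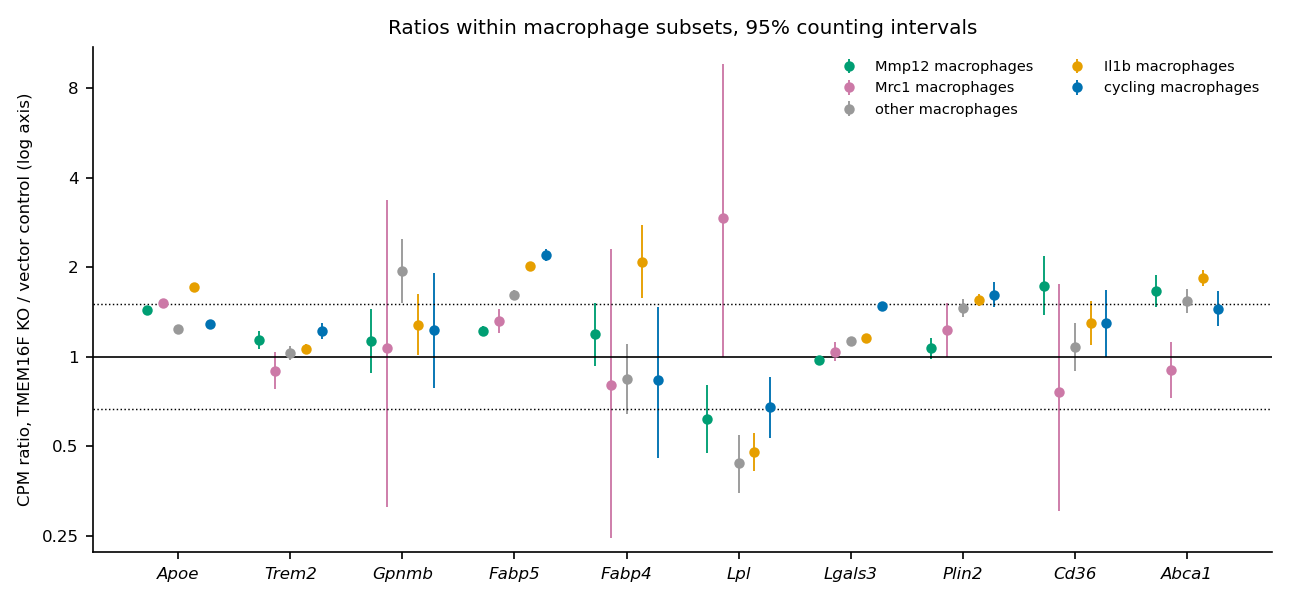
Ratio of CPM in TMEM16F KO to vector control (log axis) for each member within 5 macrophage subsets, with 95% counting intervals; dotted lines mark 1.5-fold. Fabp5 ranges from 1.22 in Mmp12 to 2.19 in cycling macrophages, and Lpl is below 1 in 4 subsets.

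Fabp5 was 2.19-fold (2.10 to 2.30) higher in cycling macrophages, going from 578 to 1268 CPM, and 2.02-fold (1.97 to 2.08) higher in Il1b macrophages. In Mmp12 macrophages, where its vector control level was highest, the ratio was 1.22 (1.18 to 1.27). Plin2 behaved alike, with 1.62 (1.47 to 1.78) in cycling, 1.55 (1.48 to 1.62) in Il1b and 1.07 (0.986 to 1.16) in Mmp12 macrophages. For both genes the cycling and Il1b subsets, lowest in the vector control, had the highest ratios. The vector control level enters the order and the ratio alike, and the interval of Plin2 in Mmp12 macrophages reached 1. Apoe ratios ran from 1.24 in other macrophages to 1.71 in Il1b macrophages. Abca1 was higher in 4 subsets, with 1.84 (1.73 to 1.96) in Il1b and 1.66 (1.47 to 1.88) in Mmp12 macrophages, but not in Mrc1 macrophages, at 0.902 (0.724 to 1.12). Whether the Abca1 ratios of these subsets differ was not tested.

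Lpl was lower in Mmp12 (0.618), Il1b (0.479), cycling (0.676) and other macrophages (0.438). In Mrc1 macrophages 6 and 11 UMIs gave a ratio of 2.94 (0.996 to 9.67), which counting error alone leaves undetermined. Cd36 was 1.73-fold (1.38 to 2.19) higher in Mmp12 macrophages and at 1.08 (0.895 to 1.30) in other macrophages. Fabp4 was 2.08-fold (1.57 to 2.78) higher in Il1b macrophages and its interval held 1 in the other 4 subsets. When macrophages were taken instead from 7 Leiden clusters of both libraries, Apoe, Fabp5 and Plin2 were higher in 7 of 7 clusters. Abca1, Trem2 and Lgals3 were higher in 6, Gpnmb and Fabp4 in 5, Cd36 in 4 and Lpl in 3. Apoe ratios within clusters ran from 1.11 to 1.39, all below the 1.50 of macrophage-like cells together. Those of Abca1 ran from 0.82 to 1.70, all below its 1.73. Fabp5 ran from 1.42 to 2.42 and Plin2 from 1.32 to 1.71, on both sides of their values for macrophage-like cells together. The part of cluster make-up in the ratios was not tested.

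Monocyte-like cells, the blood-derived precursors of many tumour macrophages, had enough UMIs for 6 members. Plin2 was at least 1.5-fold higher there, from 221 to 350 CPM, a ratio of 1.58 (1.30 to 1.92), so that 1 of 6 members was called where 7.02% of 3844 genes were, and 0 of 6 were at least 1.5-fold lower where 4.68% of genes were. Apoe stood at 480 and 708 CPM, a ratio of 1.48 (1.29 to 1.68), and Fabp5 at 400 and 541 CPM, a ratio of 1.35 (1.17 to 1.57). Trem2 was lower, at 156 and 117 CPM (142 and 77 UMIs), a ratio of 0.75 (0.561 to 0.997). Lgals3 was near level at 2788 and 2636 CPM, and Abca1 rested on 26 and 27 UMIs. The Plin2 ratio was 1.21 when at least 3 markers and no lymphocyte marker were required. Markers of the Mmp12 subset summed to 322 and 112 CPM in these cells, neutrophil markers to 137 and 2007 CPM and T cell markers to 68.0 and 174 CPM, and their part in the ratios was not tested. Gpnmb had 1 UMI in each library.

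The members occurred together in some macrophages more than in others. In thinned macrophage-like cells the median number of members with a UMI was 3 in the vector control and 4 in the knockout library, and 5.88% and 10.1% of cells had 6 or more. Cells with a Gpnmb UMI (60 and 100 cells) had Fabp5 and Fabp4 more often than cells without. Fabp5 was found in 76.7% against 48.2% in the vector control and in 87.0% against 62.1% in the knockout library, and Fabp4 in 20% against 1.45% and in 13.0% against 2.15%. Trem2 was found in 50% against 51.2% of vector control and in 61.0% against 49.3% of knockout cells. Mmp12, a macrophage elastase, was 4.80-fold and 4.09-fold higher in the Gpnmb cells and Il1b was at 0.546 and 0.476 of the level in the rest. Cells with an Lpl UMI (115 and 85 cells) shared part of this profile. Their Mmp12 level was 1.67-fold and 2.97-fold higher and their Il1b level was at 0.719 and 0.468 of the rest. Their Apoe level was 0.709 and 0.777 of that in cells without Lpl, and Fabp5 was found in 50.4% against 48.9% of vector control and in 57.7% against 63.3% of knockout cells. Their Spp1 level, that of the secreted phosphoprotein osteopontin, was 1.63-fold and 1.68-fold higher. In cells with a Gpnmb UMI Spp1 was 2.20-fold and 1.27-fold higher. Cells of 1 library are not replicates, so these shares describe the 2 libraries.

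Over 23 points, each a cell class in 1 library, the log2 CPM of Apoe followed Abca1 (Pearson r = 0.974) and the chemokine gene Pf4 (r = 0.980). Pf4 is among the macrophage markers that set the classes, so its high r is partly built in. Trem2 followed Sash1 (r = 0.984), the lysosomal hexosaminidase gene Hexa (r = 0.979) and the lysozyme gene Lyz2 (r = 0.975). Plin2 was closest to Npc2, the lysosomal cholesterol carrier (r = 0.9701), and Cd36 to Bst1 (r = 0.952) with Nr1h3, the liver X receptor alpha gene, second (r = 0.948). Gpnmb was closest to Bhlhe41 (r = 0.890), Fabp4 to Fabp5 (r = 0.874), Lpl to Cd300c2 (r = 0.923), Lgals3 to Adam8 (r = 0.964), Fabp5 to Hcfc1r1 (r = 0.953) and Abca1 to Sash1 (r = 0.975). These values are descriptions over points that share libraries, and macrophage against lymphocyte levels make up most of the spread.

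In T-like cells, Lgals3, Fabp5, Plin2 and the sparsely counted Gpnmb had more UMIs per C1q UMI than in macrophage-like cells of both libraries. For Trem2, Abca1 and the sparsely counted Lpl and Fabp4, the interval relative to macrophage-like cells lay above 1 in the knockout library only. That of Trem2 began at 1.01 and overlapped the counting interval of macrophage-like cells themselves (0.976 to 1.025). Free RNA in droplets brings macrophage transcripts into every class, and C1qa, C1qb and C1qc, complement genes of macrophages, serve as its tracer. If all UMIs of a gene in T-like cells came with free macrophage RNA, its ratio to C1q would equal that in macrophage-like cells. The C1q genes are also among the macrophage markers that set the classes, and the part of that choice in the ratio was not tested. Intervals of these ratios cover the UMIs of the member alone, with the C1q UMIs and the macrophage value taken as fixed.

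**Figure D4:**
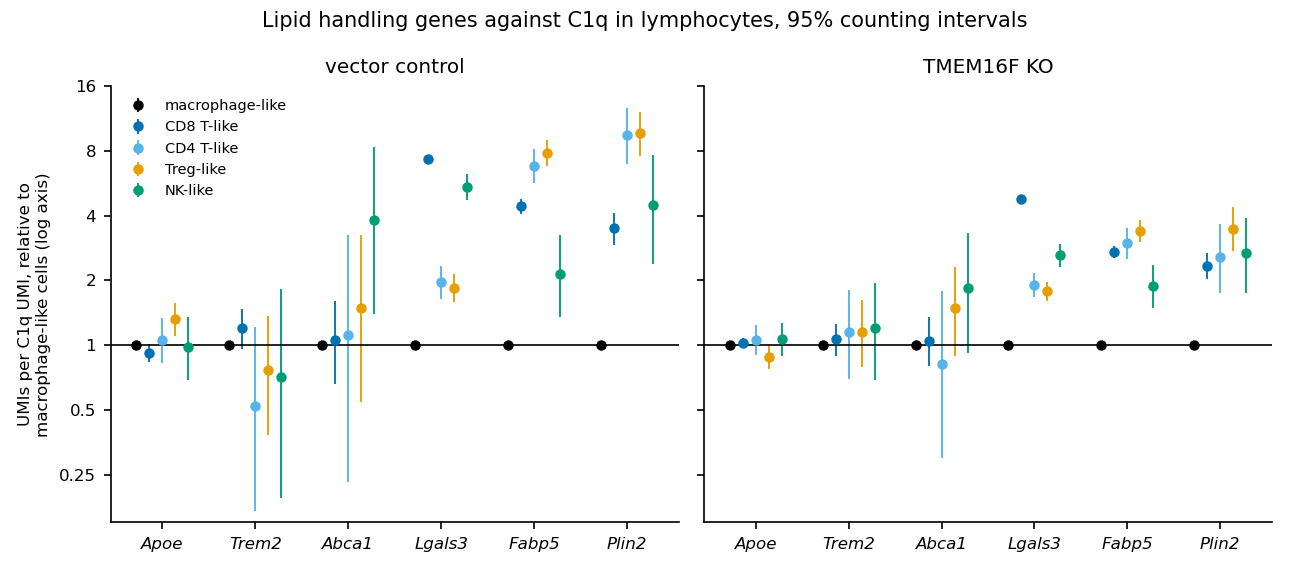
UMIs of 6 members per C1q UMI in lymphocyte classes relative to macrophage-like cells of the same library (log axis). Bars are 95% Poisson intervals of the member UMIs alone, without the counting error of the C1q UMIs. Apoe lies between 0.884 and 1.32, while Lgals3, Fabp5 and Plin2 lie above 1 in each class shown.

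Apoe in T-like cells was at 28.5 UMIs per 100 C1q UMIs in the vector control, the same as the 28.5 of macrophage-like cells, and at 50.4 against 49.6 in the knockout library. The share of thinned T-like cells with an Apoe UMI was nevertheless 18.8% and 42.2%, and T-like CPM was 106 and 257. Read against C1q, these Apoe UMIs lay at the background of free RNA and are not read as expression or as a difference between T cells. In vector control Treg-like cells Apoe per C1q UMI was 1.32 times (1.10 to 1.57) the macrophage value, and in those of the knockout library 0.884 times (0.775 to 1.01). Trem2 in T-like cells was at 1.02 and 1.16 times (1.01 to 1.32 in the knockout library) and Abca1 at 1.13 and 1.33 times (1.10 to 1.59 in the knockout library). Among the smaller classes, T-like cells of the knockout library without Cd8, Cd4 or Foxp3 markers had Trem2 at 1.52 times (1.13 to 1.99) and Abca1 at 2.48 times (1.76 to 3.41), and vector control NK-like cells had Abca1 at 3.804 times (1.40 to 8.29) from 6 UMIs. Gpnmb in T-like cells was at 2.63 times (1.25 to 4.89) from 10 UMIs and 2.37 times (1.49 to 3.58) from 23 UMIs. Fabp4 was at 2.04 times (0.813 to 4.24) from 7 UMIs and 5.06 times (3.57 to 6.99) from 40 UMIs, of which CD8 T-like cells held 35. Thinned to 2000 UMIs, 7 of 1253 knockout T-like cells (0.559%) had a Fabp4 UMI, at a mean of 0.012 UMIs per cell. Few cells thus held the Fabp4 UMIs, and the interval is narrower than the spread between cells. Lpl was at 0.859 times (0.411 to 1.59) and 1.97 times (1.19 to 3.06), and the intervals of Cd36 held 1 in both libraries. Other sources of free RNA than macrophages, such as the endothelial-like cells rich in Fabp4, were not tested. Per C1q UMI, monocyte-like cells had Lgals3 at 12.9 and 6.80 times and Plin2 at 13.5 and 9.40 times the macrophage value. Mature DC-like cells had Fabp5 at 51.7 and 19.0 times. Lgals3 was 5.49 times (5.33 to 5.67) and 3.64 times (3.55 to 3.74) the macrophage ratio in T-like cells, and 7.33 and 4.79 times in CD8 T-like cells. Its CPM of 717 and 886 there stood above the 240 and 436 CPM of Treg-like cells. Fabp5 was 4.96 times (4.66 to 5.29) and 2.74 times (2.604 to 2.87) the macrophage ratio, and Treg-like cells had 7.82 and 3.40 times. Plin2 was 4.92 and 2.56 times the macrophage ratio, with 9.65 and 3.48 times in Treg-like cells at 94.9 and 82.0 CPM. Median depths were 5298 and 4519 UMIs in T-like and 7611 and 7667 UMIs in macrophage-like cells.

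Other genes of the same pathways, from lists chosen by function, were compared in macrophage-like cells to place the members among them. The lists were read against the 7.35% and 4.92% of all genes tested that were at least 1.5-fold higher or lower, and against the median log2 ratio of 0.03. Counts by direction were read against the 54.1% of genes tested that were higher.

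**Figure D5:**
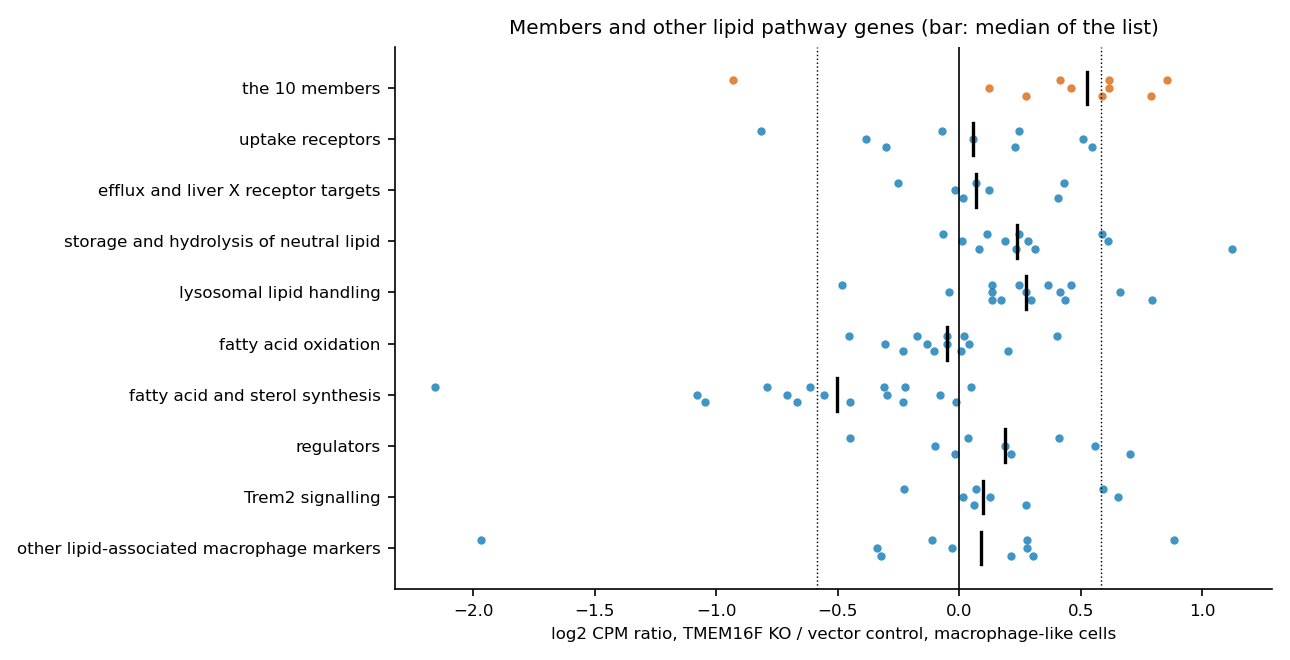
Log2 ratio of CPM (TMEM16F KO over vector control) in macrophage-like cells for the members (orange) and for the genes with at least 50 UMIs in 9 lists (blue), with a bar at each list's median and dotted lines at 1.5-fold. Genes of synthesis lie mostly below 0, with a median of -0.50, and those of storage and hydrolysis of neutral lipid and of lysosomal handling mostly above.

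Genes of the storage and hydrolysis of neutral lipid were mostly higher. Of 12 tested, 11 were higher and 1 lower, 3 of them at least 1.5-fold higher, with a median log2 ratio of 0.24. Hilpda, a hypoxia-inducible inhibitor of droplet lipase, was at 216 and 471 CPM, a ratio of 2.18 (2.11 to 2.25), beside Dgat1 (1.53), which forms triglyceride, and Gpat3 (1.50), which starts its assembly. The list also holds genes that break droplet lipid down, named here after their values were seen: Pnpla2 was at 1.18 (1.08 to 1.30), Abhd5 at 1.24 (1.12 to 1.37) and Lipe at 1.08 (0.894 to 1.31). Lysosomal genes were higher in 13 of 15 cases, with a median of 0.28, and 2 passed 1.5-fold. The protease gene Ctsl was at 955 and 1655 CPM, a ratio of 1.73, and Gla, which trims glycolipids, at 49.9 and 79.0 CPM, a ratio of 1.58. Within subsets, 6 of 10 storage genes tested were higher in Mmp12, 1 of 5 in Mrc1 and 8 of 12 in Il1b macrophages. In cycling macrophages 7 of 11 were higher, and in other macrophages 9 of 11. Of 15 lysosomal genes, 14 were higher in Mmp12, 7 in Mrc1 and 13 in each other subset. In monocyte-like cells 2 of 6 storage genes tested were higher, with Hilpda at 0.983, and 7 of 13 lysosomal genes.

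Synthesis genes lay on the other side. Of 16 genes for fatty acid and sterol synthesis, 15 were lower and 1 higher, 7 of them at least 1.5-fold lower, with a median log2 ratio of -0.50. Hmgcs1, which makes HMG-CoA for cholesterol synthesis, was at 81.6 and 38.7 CPM, 2.11-fold lower. Scd2, a fatty acid desaturase, was at 65.9 and 31.9 CPM, 2.06-fold lower, and its relative Scd1 had 56 and 13 UMIs, a ratio of 0.224 (0.113 to 0.415). The list was lower in every subset too, with medians from -0.57 to -0.28, where those of all genes ran from -0.006 to 0.06. Of its tested genes, 10 of 12 were lower in Mmp12, 6 of 7 in Mrc1, 14 of 15 in Il1b, 13 of 15 in cycling and 11 of 13 in other macrophages. With subsets weighted alike in both libraries its median was -0.49. In monocyte-like cells 7 of 10 tested were lower, 5 of them at least 1.5-fold, and 1 was at least 1.5-fold higher, with a median of -0.61. Of all genes tested there, 51.9% were higher.

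The remaining lists were closer to all genes. Uptake receptors had 5 higher and 4 lower of 9, with 1 at least 1.5-fold lower, Axl, a receptor for bridged dying cells (107 and 60.8 CPM, 1.76-fold lower). Of 7 efflux and liver X receptor target genes beside the members, 5 were higher, 2 lower and 0 past 1.5-fold, with Abcg1, the transporter that loads high-density lipoprotein, at 45.4 and 46.0 CPM and the phospholipid transfer gene Pltp at 46.8 and 51.0 CPM. Abca1 and Abcg1 therefore differed between the libraries to unlike extents, at 1.73 (1.66 to 1.80) and 1.01 (0.933 to 1.10). Fatty acid oxidation genes had 5 higher and 8 lower of 13, with 0 past 1.5-fold, among them Acadl at 76.5 and 73.8 CPM and Etfb at 118 and 95.2 CPM. Regulators had 6 higher and 3 lower of 9, with Mitf, a MiT/TFE factor, at 47.1 and 76.7 CPM, a ratio of 1.63 (1.52 to 1.75). Trem2 signalling genes had 7 higher and 1 lower of 8, with 2 past 1.5-fold, Ms4a4a (1.57) and the kinase gene Syk (1.51). Among 10 other lipid-associated macrophage markers, 5 were higher and 5 lower, and they held both extremes of that list, Spp1 at 3617 and 6674 CPM (1.85) and the protease gene Ctsk at 29.1 and 7.44 CPM, 3.91-fold lower. The median of these 10 markers was 0.09 and changed sign, to -0.11 as a mean over cells and -0.06 with subsets weighted alike.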

How the data were processed

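Libraries were made with 10x 3′ v3.1 kits, per the labels' protocols. The authors deposited raw counts of UMIs for each gene and barcode, and the file headers name Cell Ranger 8.0.0. The submitters' processing notes list mm10 and Seurat 3.1.1. For the annotation, the sources used here name no version. Of the deposited gene IDs, 32236 of 34290 were found in GENCODE M21. Barcodes were kept if 200 or more genes were detected and mitochondrial transcripts made up less than 20% of their UMIs. Scrublet's automatic threshold marked 0 barcodes, so the highest scores were left out at 0.8% per 1000 barcodes (221 vector control, 287 knockout). A class needed UMIs of at least 2 of its markers and a lead of 0.1 in the share of markers detected. Cells with T or NK and macrophage markers (243 and 431) were called mixed, and 617 and 646 stayed unassigned; none of these entered a class. Names were rebuilt here. Of macrophage-like cells, 277 and 297 had a lead under 0.2.

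UMIs were summed per class and library and given as CPM, with exact Poisson, Clopper-Pearson and conditional binomial intervals (95%). Genes with at least 50 UMIs were tested against 1.5-fold. The ratio script was tested on simulated data. Thinning was 1 seeded draw. The members and lists were chosen with earlier results of these data known. Named genes were the 10 members, up to 4 genes per list past 1.5-fold with an interval off 1, otherwise the 2 with most UMIs, and for likeness up to 3 genes with the highest Pearson r of log2(CPM + 1); 1 gene named by this rule is not reported here. Python 3.11.15, scanpy 1.11.5, scipy 1.17.1 and leidenalg 0.10.2 were used. The alternatives were Leiden classes, stricter markers, other totals and centring, a mean over cells, other filters on barcodes and genes, other thinning depths and equal subset weights.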

Additional observations from a re-analysis of the deposited data

Results flagged for a closer look

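Trem2 and Lgals3 went in opposite directions in different phagocyte classes, each with a counting interval that left out 1, and the differences between classes were not tested. The ratio of knockout to vector control for Trem2 was 0.75 in monocyte-like cells and 1.09 in macrophage-like cells, where it was 1.14 in the Mmp12, 1.06 in the Il1b and 1.22 in the cycling subset. For Lgals3 it was 0.973 in Mmp12 macrophages, against 1.21 in macrophage-like cells together, 1.15 in the Il1b, 1.48 in the cycling and 1.13 in the other macrophages.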

How the results depend on the processing

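No paired analysis was possible because there is 1 library per group and the labels give no replicate numbers, and for the same reason no replicate could be left out. In macrophage-like cells the 5 members at least 1.5-fold higher became 2 without mitochondrial, ribosomal protein and haemoglobin genes in the total, 3 when centred on the median of all genes, 3 as a mean over cells and 1 with subsets weighted alike, and the 1 lower member became 0 as a mean over cells. In monocyte-like cells the 1 higher member became 0 with at least 3 markers and no lymphocyte marker, 0 as a mean over cells, 2 without the doublet filter and 2 with no filter beyond 1 UMI, and the 0 lower members became 1 with at least 3 markers. No cluster could be named monocyte-like, so the Leiden alternative gave no value there. Over 11 alternatives in macrophage-like cells Fabp5 stayed past 1.5-fold in 11 (1.52 to 1.85), Abca1 in 10 (1.37 to 2.22), Lpl in 10 (0.504 to 0.673), Gpnmb in 8, Plin2 in 7, Apoe in 6 (1.40 to 1.54) and Cd36 in 2. Of 380 values under alternatives, 251 stayed within the spread set by counting error, 129 moved beyond it and 0 called values changed direction. The cause of these moves was not tested. Depth limits Gpnmb, Fabp4, Lpl and Cd36 in monocyte-like cells, where each had 14 UMIs or fewer per library.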
